A study of Mus musculus with 16 samples.

Results

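The respiratory chain was followed here through 101 protein-coding genes out of 55573 gene identifiers in the count table, in CD8 T cells recovered from tumours. They were chosen by gene symbol: names beginning with Ndufa, Ndufb, Ndufc, Ndufs, Ndufv, Uqcr, Cox4i, Cox5, Cox6, Cox7, Cox8, Atp5 or mt-, with Sdha to Sdhd, Cyc1 and Cycs, and without the Ndufaf assembly factors. By name, 38 belonged to complex I, 4 to complex II, 9 to complex III, 18 to complex IV and 18 to complex V. Cycs is cytochrome c, and 13 genes are encoded on the mitochondrial chromosome. Of the 101, 91 passed the filter on low counts: 80 nuclear genes and 11 mitochondrially encoded genes.

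The cells were OT1 CD8 T cells (T cell receptor transgenic, specific for ovalbumin) of C57BL/6 strain. Per the series' design text, tumour-bearing mice received a mixture of Foxp3UP and Mock cells, and the live transferred cells were sorted by surface markers after 5 days. The titles give 4 groups of 4 libraries each: Foxp3UP with its control MockUP, and Foxp3DN with its control MockDN. All 4 groups share the OT1 receptor, the transfer and the sort, and the labels give neither the meaning of UP and DN, nor the vector, nor the tumour line, nor the age of the animals. The labels do not say whether libraries of a group came from separate mice, so p-values measure the spread between these samples, which may be technical.

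The respiratory chain sits in the inner mitochondrial membrane. Complexes I and II take electrons from NADH and succinate, complex III passes them to cytochrome c, and complex IV hands them to oxygen. Complexes I, III and IV pump protons, and complex V, the ATP synthase, uses the resulting gradient to make ATP. Most subunits are nuclear genes, while a few core subunits of complexes I, III, IV and V are transcribed inside the mitochondrion. In CD8 T cells, respiratory capacity is best known as a property of memory cells and of cells that persist in tumours.

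Library totals ran from 9389477 to 13226590 counts. The CD8 T cell markers (7 of 7 detected) summed to between 3570 and 6956 CPM (counts scaled to library size with TMM factors), and Cd4 stayed at or under 0.759 CPM. Foxp3 itself ran from 15.2 to 29.5 CPM in Foxp3UP against 11.5 to 13.7 in MockUP, and from 10.1 to 10.4 in Foxp3DN against 11.0 to 14.6 in MockDN. Every library labelled Foxp3DN thus lay below every MockDN library, a separation seen in that direction for 0.598% of all genes tested. For Foxp3UP wholly above MockUP the share was 8.61%. The 5 melanoma markers summed to between 61.7 and 143.2 CPM in Foxp3UP against 63.1 and 94.3 in MockUP, and to between 36.2 and 81.2 in Foxp3DN against 22.8 and 72.9 in MockDN. Macrophage and monocyte markers summed to between 44.1 and 63.9 CPM in Foxp3UP and 32.8 and 48.4 in MockUP, with 1 of 6 tested called higher. The B cell markers summed to between 281.2 and 357.8 CPM in Foxp3UP against 129.5 and 206.3 in MockUP, without overlap, and 1 of the 3 tested was called higher, also in the difference of effects. The dendritic cell markers summed to between 58.7 and 84.2 CPM against 37.8 and 61.1, with 1 of 2 tested called higher. Endothelial markers summed to between 53.9 and 63.1 CPM in Foxp3UP against 47.6 and 68.4 in MockUP, and 1 was tested and not called. Fibroblast markers summed to between 0.793 and 8.14 CPM against 0.285 and 2.6, and 1 was tested and not called. Within these lists, Ms4a1 (B cells), Siglech (plasmacytoid dendritic cells) and Cdh5 (endothelial cells) were at 0 in all 16 libraries, while other markers of each list were detected. The part of these cells in the results was not tested. Replicates 1 and 2 of every group carry lower sample numbers in the titles than replicates 3 and 4.

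One library stood apart in nearly every member and is named here before the results that rest on it. In MockUP 2, nuclear members made up 0.738% of counts, against 0.928% to 1.16% elsewhere, and mitochondrially encoded proteins 0.211%, against 0.258% to 0.470%. MockUP 2 was the lowest of the 16 libraries for 84 of the 91 members tested (92.3%), and for 22.7% of all 13711 genes tested. Against the mean of the other MockUP libraries, the median nuclear member was at -1.10 (log2) in MockUP 2, where the median over all genes was 0.01. The 4 groups and their libraries are therefore compared both with and without MockUP 2.

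The deficit of MockUP 2 was largest in short genes, both among the members and over all genes, and members were lower in every length class. Nuclear members with under 1500 exonic bases (35 genes) had a median difference of -1.19 from the other MockUP libraries, those from 1500 to under 3000 bases (25 genes) -0.99 and those of 3000 bases or more (20 genes) -0.76, all on the log2 CPM scale. Over all genes tested the medians of the same length classes were -0.47, -0.26 and 0.17. Across the 80 nuclear members, which share this library, Spearman's rho between length and the difference was 0.51. Exonic length here counts all annotated exons of a gene, so it can exceed the length of its main transcript. The longest class was spread widely: Sdha, the flavoprotein of succinate dehydrogenase, differed by 0.06 and Ndufs1, the largest complex I core subunit, by -0.03, but Atp5l, a membrane subunit of complex V, differed by -1.30 and Ndufab1 by -1.18. Ndufb4, a membrane-arm subunit of complex I, differed by -1.62. Ribosomal protein genes, another group of short transcripts, were at -0.86 in MockUP 2 relative to their mean over all libraries (76 genes), and the summed CD8 markers were lowest there too, at 3570 CPM. The part of transcript length, RNA quality or cell content in this deficit was not tested.

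**Figure D1:**
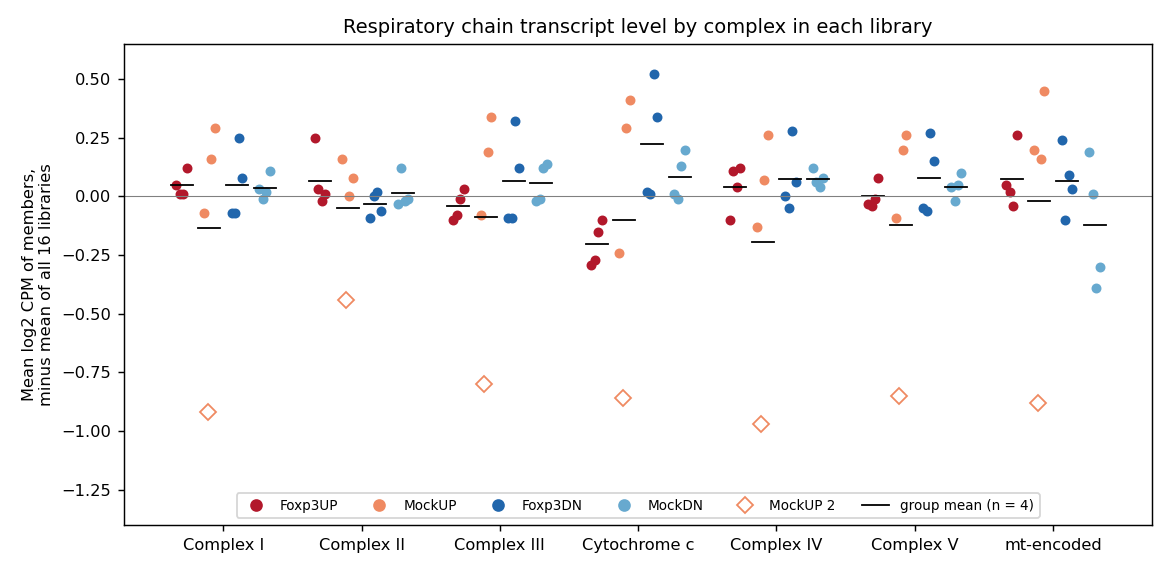
Each point is 1 library: the mean log2 CPM of the members tested in a complex minus that complex's mean over all 16 libraries, coloured by group, with black bars for group means (n = 4) and an open diamond for MockUP 2. MockUP 2 lies at -0.92 for complex I and -0.97 for complex IV, whereas the other 15 libraries span -0.07 to 0.29 and -0.13 to 0.28.

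Each Foxp3 group overlapped its own control in the mean level of every complex. For complex I (37 members tested) the mean log2 CPM was 5.57 ± 0.05 in Foxp3UP and 5.39 ± 0.55 in MockUP, beside 5.57 ± 0.15 for Foxp3DN and 5.56 ± 0.05 for MockDN (SD, n = 4 each). Without MockUP 2 the MockUP value became 5.65 ± 0.19 (SD, n = 3). Complex IV gave 6.16 ± 0.10 in Foxp3UP and 5.93 ± 0.54 in MockUP, or 6.18 ± 0.19 without MockUP 2. The spread of MockUP for complex I was thus smaller without that library but still above that of the other groups, and Foxp3UP lay below the MockUP mean for complex I once that library was left out and above it otherwise. Complex II moved least in MockUP 2, at -0.44 from its mean over all libraries, and 1 of its 4 members is the long Sdha.

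Of the 91 members tested, 1 rose and none fell in Foxp3UP against MockUP, at a Benjamini-Hochberg adjusted p under 0.05 in edgeR's quasi-likelihood test over all genes; 12.1% of all genes tested were called. At an unadjusted p under 0.05 there were 3 members, and DESeq2 called 1 member, with 14.9% of all genes called. The gene that rose was Ndufv3, an accessory subunit of the NADH-binding module of complex I, where electrons enter the chain. The libraries of Foxp3UP and MockUP did not overlap for 1 of the 91 members, against 15.9% of all genes.

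Ndufv3 (ENSMUSG00000024038, mm10 chromosome 17, 31520115 to 31531331, plus strand) had 82.3, 74.4, 71.3 and 77.0 CPM in Foxp3UP 1 to 4 and 57.5, 39.0, 60.6 and 50.2 CPM in MockUP 1 to 4. Foxp3DN had 55.3, 49.5, 63.0 and 55.2 CPM, and MockDN 54.8, 60.4, 53.0 and 58.5 CPM. Every Foxp3UP library was above all 12 libraries of the other groups, with MockUP 2 the lowest of the 16. The share of all genes with such a separation from all 12 was not counted, so it is not read as a trait of Ndufv3. The log2 fold change of Foxp3UP against MockUP was 0.56 ± 0.12 (SE, n = 4 each), with an adjusted p of 0.00584 in edgeR's quasi-likelihood test. Without MockUP 2 it was 0.44, with an edgeR adjusted p of 0.00628. It was 0.70 in replicates 1 and 2 alone (edgeR adjusted p 0.146) and 0.40 in replicates 3 and 4 alone (0.011). Ndufv3 was called in 27 of 29 alternative settings; the exceptions were replicates 1 and 2 alone and the fit to the libraries compared alone.

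In Foxp3DN against MockDN, Ndufv3 differed by -0.02 ± 0.12 (SE, log2). The difference between both effects was 0.58 ± 0.17 (SE), with an edgeR adjusted p of 0.0839, so it did not pass. With the replicate number as a block within each arm the difference was 0.60 and passed, with an edgeR adjusted p of 0.0241, and DESeq2 gave 0.57 with an adjusted p of 0.0356. Other members of the same module were not called with Ndufv3: over the 37 complex I members tested, 1 was higher, 0 lower and 36 not called.

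**Figure D2:**
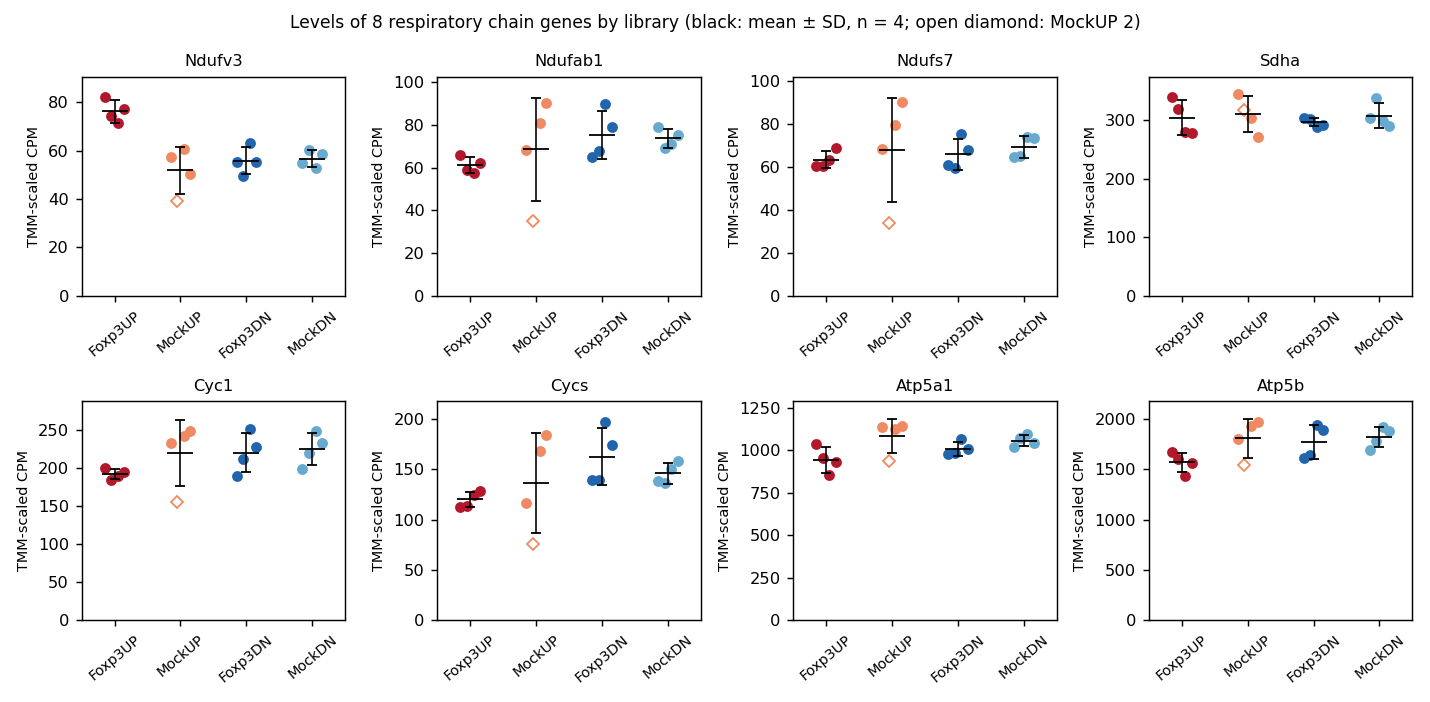
TMM-scaled CPM of 8 members in each library, 1 panel per gene with the axis from 0; black bars are group means ± SD (n = 4) and the open diamond is MockUP 2. Ndufv3 is the panel where the 4 Foxp3UP libraries (71.3 to 82.3 CPM) lie above all others, a separation whose share over all genes was not counted. In Ndufab1, Cyc1, Atp5a1 and Atp5b the Foxp3UP libraries lie below MockUP 1, 3 and 4.

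Promoter sequence is given for 4 members to set Ndufv3 beside members that hold motifs of factors known for respiratory genes. RefSeq windows of 300 bases (250 before the annotated start and 50 from it, GRCm38.p6) were found for 68 member genes. They were searched on both strands for NRF1 (a palindrome of 10 letters, the first capitals in the Cox6a1 line), an ETS site as bound by GABP (CCGGAAG) and YY1 (AAGATGGC). Each is written 5′ to 3′ on the strand of the gene, with motif matches in capitals. Ndufv3 is the member that rose, Atp5j2 is a member that was called higher in 2 of 29 alternative settings (the replicate block within each arm, and without MockUP 4), Ndufs7 is a member called lower without MockUP 2, and Cox6a1 holds 2 of the motifs.
Ndufv3: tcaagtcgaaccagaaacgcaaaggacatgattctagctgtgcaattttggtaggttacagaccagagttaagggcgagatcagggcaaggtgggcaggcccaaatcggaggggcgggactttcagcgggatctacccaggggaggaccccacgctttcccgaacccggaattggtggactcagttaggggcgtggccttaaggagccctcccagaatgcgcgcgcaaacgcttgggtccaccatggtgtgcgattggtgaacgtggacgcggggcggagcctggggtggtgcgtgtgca
Atp5j2: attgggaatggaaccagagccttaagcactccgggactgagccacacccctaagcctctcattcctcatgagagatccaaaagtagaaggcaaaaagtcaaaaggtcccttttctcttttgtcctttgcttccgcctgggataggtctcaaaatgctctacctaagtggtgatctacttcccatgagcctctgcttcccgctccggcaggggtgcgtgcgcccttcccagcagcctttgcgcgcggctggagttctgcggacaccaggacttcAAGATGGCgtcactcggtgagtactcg
Ndufs7: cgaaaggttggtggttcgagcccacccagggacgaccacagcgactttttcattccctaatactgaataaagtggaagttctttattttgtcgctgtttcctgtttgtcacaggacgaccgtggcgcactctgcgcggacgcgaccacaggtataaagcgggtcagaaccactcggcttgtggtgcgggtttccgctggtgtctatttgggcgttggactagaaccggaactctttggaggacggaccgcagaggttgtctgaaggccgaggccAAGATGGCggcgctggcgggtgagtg
Cox6a1: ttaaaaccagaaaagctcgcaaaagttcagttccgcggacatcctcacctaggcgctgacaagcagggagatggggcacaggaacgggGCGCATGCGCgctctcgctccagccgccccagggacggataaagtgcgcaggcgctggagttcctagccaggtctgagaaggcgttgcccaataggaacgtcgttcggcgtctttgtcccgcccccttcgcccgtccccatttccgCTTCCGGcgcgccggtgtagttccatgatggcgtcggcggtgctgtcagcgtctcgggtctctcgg

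These windows are chr17:31519865-31520164 on the plus strand, chr5:145191492-145191791 on the minus strand, chr10:80249199-80249498 on the plus strand and chr5:115348909-115349208 on the minus strand. The Ndufv3 window held none of the 3 motifs as spelled. Atp5j2 and Ndufs7 each held AAGATGGC just after the annotated start, from positions 24 and 25, and Cox6a1 held the NRF1 letters from -162 and the ETS letters on the opposite strand from -16. Over 73 member promoters, 6.85% held the NRF1 letters, 21.9% the ETS letters and 12.3% the YY1 letters, against 0.971%, 8.86% and 2.75% of all 32851 promoters in the table. At least 1 of the 3 was found in 37.0% of member promoters and 11.9% of all. These are matches of letters, and binding was not measured.

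With MockUP 2 left out, 5 of the 91 members fell in Foxp3UP against MockUP and 1 rose, against 6.97% and 6.16% of all genes tested in that fit. The 5 were Ndufab1, the acyl carrier protein that is also a complex I subunit; Ndufs7, an iron-sulphur subunit of the electron path; Cyc1, the cytochrome c1 of complex III; and Atp5a1 and Atp5b, the alpha and beta subunits of the ATP synthase head. In this fit, 17 of 80 nuclear members were above 0 and 63 below, with a median of -0.07 (log2). With all libraries, 58 were above 0 and 22 below, with a median of 0.12, so this direction turned with that library.

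Cyc1 had 199.7, 184.2, 189.0 and 193.9 CPM in Foxp3UP and 233.0, 155.3, 242.2 and 247.7 CPM in MockUP, where the second value is MockUP 2. Foxp3DN had 189.6, 211.2, 250.6 and 226.9 CPM and MockDN 197.8, 219.8, 248.4 and 232.0 CPM. The 4 Foxp3UP libraries thus lay above MockUP 2 and below the other MockUP libraries, and overlapped both DN groups. Its log2 fold change was -0.20 ± 0.13 (SE) with all libraries (edgeR adjusted p 0.353) and -0.33 without MockUP 2 (edgeR adjusted p 0.0244).

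Atp5a1 had 1038.2, 952.7, 852.1 and 933.6 CPM in Foxp3UP and 1139.8, 934.3, 1122.4 and 1144.4 CPM in MockUP. Atp5b, the catalytic subunit, had 1673.6, 1600.9, 1436.3 and 1567.8 CPM in Foxp3UP and 1801.6, 1540.2, 1929.2 and 1974.1 CPM in MockUP. MockUP 2 was below MockUP 1, 3 and 4 in both, and within the Foxp3UP range. Without it the log2 fold changes were -0.27 for Atp5a1 and -0.28 for Atp5b (edgeR adjusted p 0.032 and 0.0479), and with it -0.20 ± 0.09 and -0.21 ± 0.10 (SE; edgeR adjusted p 0.163 and 0.202).

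Ndufab1 had 66.0, 58.9, 57.7 and 62.1 CPM in Foxp3UP and 68.3, 35.0, 80.8 and 90.5 CPM in MockUP. Ndufs7 had 60.7, 60.7, 63.1 and 69.1 CPM in Foxp3UP and 68.5, 34.1, 79.5 and 90.2 CPM in MockUP. In both, MockUP 2 was the lowest of the 16 libraries. Over all members, the 4 Foxp3UP libraries lay below all of MockUP 1, 3 and 4 in 8 of 91 (8.79%), where 10.9% of all genes did, and above them in 1, where 11.7% of all genes did. Read against this background, the number of members below was not a result about the members.

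**Figure D3:**
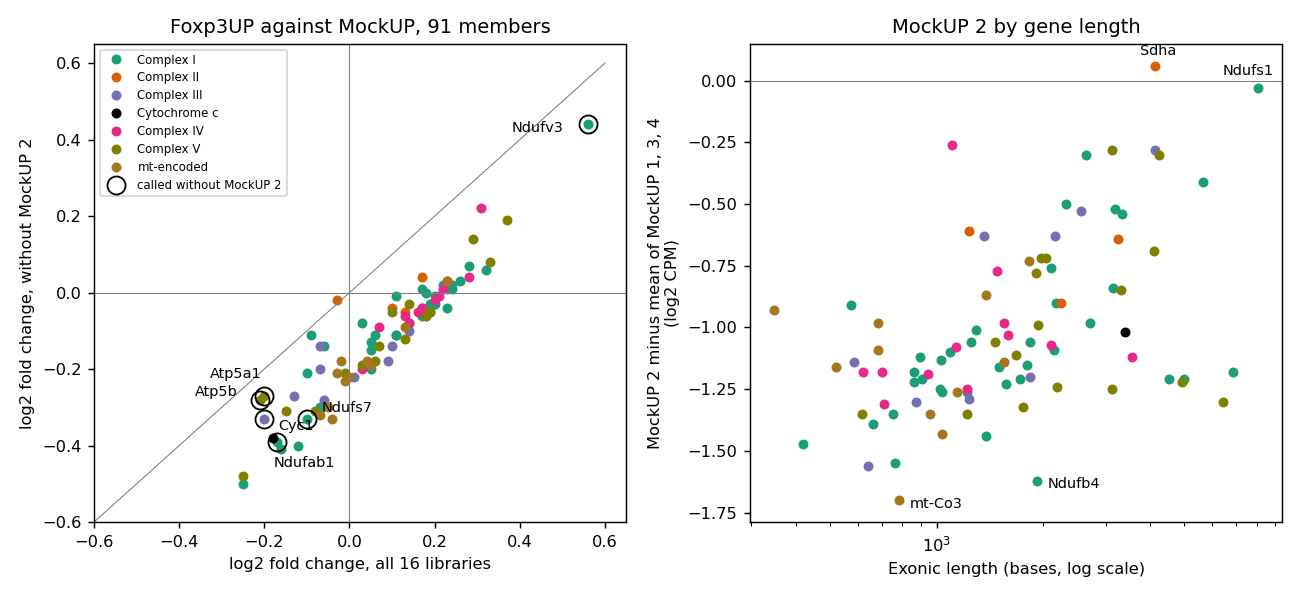
Left, log2 fold change of Foxp3UP against MockUP for the 91 members with all 16 libraries (x axis) and without MockUP 2 (y axis), coloured by complex, with a line of equality and rings on the 6 members called without MockUP 2. Right, log2 CPM of MockUP 2 minus the mean of MockUP 1, 3 and 4 against exonic length (log axis): members of 3000 bases or more run from 0.06 (Sdha) down to -1.30 (Atp5l).

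Both sets of replicates gave opposite directions, and MockUP 2 belongs to the first. In replicates 1 and 2 alone the nuclear median of Foxp3UP against MockUP was 0.43 and 0 of 91 members were called (0.221% of all genes). In replicates 3 and 4 alone it was -0.17, with 1 member higher and 19 lower, against 10.1% and 12.0% of all genes. In the same libraries the ribosomal protein genes were at 0.32 and 0.44 from their mean over all libraries in MockUP 3 and 4, against -0.18 and -0.03 in Foxp3UP 3 and 4, and Spearman's rho between length and each gene's difference from its own mean, over all genes tested, was -0.18 and -0.25 against -0.06 and -0.15. Their part in the 19 lower members was not tested. Those 19 included Cycs, Cyc1, Uqcrfs1 (the Rieske iron-sulphur protein), Atp5b, Ndufab1 and 4 mitochondrially encoded genes. With a block per pair of same-numbered libraries within each arm and all libraries, 3 members were called: Ndufv3 (0.57) and Atp5j2 (0.41) higher and Atp5a1 (-0.20) lower, with edgeR adjusted p of 0.00238, 0.0458 and 0.0495 and 25.3% of all genes called. The same block without MockUP 2 called 1 member higher and 18 lower, against 15.1% and 15.0% of all genes. Without the replicate 2 libraries of both Foxp3UP and MockUP, 1 member was called, Ndufv3 (0.45, edgeR adjusted p 0.0128), with 10.3% of all genes called.

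Atp5j2, subunit f of the membrane part of complex V, had 64.5, 69.3, 68.5 and 71.8 CPM in Foxp3UP and 53.0, 33.0, 57.6 and 69.3 CPM in MockUP. MockUP 4 reached the Foxp3UP range, and MockUP 2 was lowest. Its log2 fold change with all libraries was 0.37 ± 0.15 (SE), with an edgeR adjusted p of 0.138. Cycs, the mobile electron carrier that also serves in cell death signalling, had 112.9, 114.0, 124.3 and 128.8 CPM in Foxp3UP and 116.6, 75.8, 168.6 and 183.8 in MockUP. Its log2 fold change was -0.18 ± 0.20 (SE; edgeR adjusted p 0.604). The highest Foxp3UP library, at 128.8 CPM, was also below all 8 libraries of Foxp3DN and MockDN (136.6 to 197.2 CPM), groups not compared with Foxp3UP by a test here. The share of all genes with such a separation was not counted, so it is not read as a trait of Cycs. Sdha, for comparison, had 339.8, 319.5, 279.4 and 278.5 CPM in Foxp3UP and 345.3, 318.1, 304.4 and 271.5 in MockUP, so that the groups overlapped and MockUP 2 was in the middle.

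By complex in Foxp3UP against MockUP with all libraries, the median log2 fold change was 0.17 for complex I (28 members above 0 and 9 below), 0.11 for complex II (3 and 1), -0.06 for complex III (4 and 5), 0.18 for complex IV (12 and 0), 0.07 for complex V (11 and 6) and -0.01 for the mitochondrially encoded genes (4 and 7), where the median over all genes tested was 0.0. Without MockUP 2 the medians were -0.06, -0.03, -0.20, -0.03, -0.14 and -0.21 in the same order. Once that library was left out, complex IV had 4 members above 0 and 8 below.

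Cox4i1, a regulatory subunit of complex IV, had 274.7, 277.8, 278.3 and 309.0 CPM in Foxp3UP and 268.6, 149.8, 302.9 and 319.0 CPM in MockUP. Cox6b1, which lies at the contact of the complex IV dimer, had 105.1, 105.8, 98.4 and 105.3 CPM in Foxp3UP and 93.1, 40.3, 98.9 and 109.4 CPM in MockUP. In both genes the groups overlapped and MockUP 2 was the lowest library, and neither was called (0.13 ± 0.16 and 0.28 ± 0.20, log2 with SE). Sdhb, the iron-sulphur subunit of complex II, had 279.1, 227.4, 233.3 and 253.9 CPM in Foxp3UP and 266.0, 137.6, 241.6 and 261.7 CPM in MockUP, again with overlap.

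The largest negative values with all libraries belonged to Ndufa4 and Atp5g1, and neither passed. Ndufa4, named for complex I but known to associate with complex IV, had 47.5, 47.1, 53.0 and 57.3 CPM in Foxp3UP and 55.5, 26.1, 73.8 and 87.9 CPM in MockUP. Atp5g1, a gene for the c ring of the ATP synthase, had 78.6, 79.3, 85.1 and 96.1 CPM in Foxp3UP and 88.3, 49.6, 129.3 and 135.7 CPM in MockUP. MockUP 3 and 4 were the highest and MockUP 2 the lowest of these 8 libraries in both genes. Each was at -0.25 with all libraries (SE 0.25 and 0.23; edgeR adjusted p 0.586 and 0.527). In replicates 3 and 4 alone both were at -0.57 and were called (edgeR adjusted p 0.00105 and 0.0104).

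Atpif1, the inhibitor of the ATP synthase, lies outside the naming rule and was at 41.4 ± 3.87 CPM in Foxp3UP and 34.5 ± 11.0 CPM in MockUP (SD, n = 4 each), with a log2 fold change of 0.26 ± 0.18 (SE; edgeR adjusted p 0.39).

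In Foxp3DN against MockDN, 0 of 91 members were called by edgeR, where 0.00729% of all genes were, and 0 had an unadjusted p under 0.05; DESeq2 also called 0. The nuclear median was 0.02, at -0.09 in replicates 1 and 2 alone and 0.12 in replicates 3 and 4 alone. All 11 mitochondrially encoded members lay above 0 with all libraries, with a median of 0.19. In replicates 1 and 2 alone 5 were above 0 and 6 below (median -0.0), and in replicates 3 and 4 alone 11 were above (median 0.36). The median was 0.08 without MockDN 3 and 0.09 without MockDN 4. With all libraries mt-Co1, the catalytic subunit of complex IV, was at 0.40 ± 0.24 (SE; edgeR adjusted p 1.0). mt-Co1 had 2299, 1455, 1695 and 1997 CPM in Foxp3DN and 1648, 1229, 1238 and 1515 CPM in MockDN, and the groups overlapped. In the comparison of both effects, 0 of 91 members were called, against 1.83% of all genes, with 1 at an unadjusted p under 0.05, Ndufv3; DESeq2 called 1 member, with 5.38% of genes called.

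In MockUP against MockDN, 0 of 91 members were called (0.00729% of all genes; 0 at an unadjusted p under 0.05, and 0 by DESeq2, which called 0.241% of the genes it gave an adjusted p). Of the nuclear members, 8 were above 0 and 72 below, with a median of -0.10. Without MockUP 2, 68 were above and 12 below, at a median of 0.09. Here too the direction turned with 1 library. In replicates 3 and 4 alone, 7 mitochondrially encoded genes were called higher in MockUP, against 0.125% of all genes called higher, from mt-Nd5 at 0.49 to mt-Co1 at 0.80. MockDN 3 and 4 were low for these genes: mt-Cytb, the core of complex III, had 355.2 and 363.4 CPM there and 536.9 and 568.6 CPM in MockDN 1 and 2.

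Levels between genes were compared per kilobase of exonic length, in mean CPM per kb over the 16 libraries. This length counts all annotated exons of a gene, so ranks and shares between genes rest partly on it. Within complex I the levels ran from Ndufb2 at 0.956 to Ndufa2 at 84.0, with a complex median of 33.8. The ATP synthase head was the most abundant nuclear part, with Atp5b at 411.7 and Atp5a1 at 326.5. Complex II was led by Sdhd, one of its membrane anchors, at 162.9, and complex III by Uqcrfs1 at 152.7. Cycs was at 41.5.

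In 6 of the 8 sets of alternative forms, Cox4i, Cox6a, Cox6b, Cox7b, Cox8 and Ndufa4, 1 form held at least 99.4% of the summed CPM per kb, whereas the Cox7a and Atp5g sets were divided. Cox4i1 was at 178.3 CPM per kb and Cox4i2, the form known to be induced by low oxygen, at 0.466. Cox6a1 was at 197.4 and Cox6a2, a heart and muscle form, at 0.0908, with 12 counts in all. Cox7a2 was at 67.6 (51.7% of its set) and Cox7a2l, which takes part in supercomplex assembly, at 62.2 (48.1%), while the muscle form Cox7a1 was at 0.33. Cox8a was at 190.7, and Cox8b and Cox8c had 0 counts in all libraries, which allows up to 0.0169 CPM over the 16 libraries at 3 counts. Ndufa4 was at 45.5 and Ndufa4l2 at 0.058. The 3 genes for the c subunit of the ATP synthase ring gave the same protein from different genes, with Atp5g3 at 68.3% of their summed CPM per kb, Atp5g2 at 19.0% and Atp5g1 at 12.7%. The order of the last 2 rests on the length used: Atp5g1 had 18435 counts over 4912 exonic bases, and Atp5g2 9305 counts over 1675. The 10 members that did not pass the filter were Cox4i2, Cox6a2, Cox7a1, Cox7b2, Cox8b, Cox8c, Ndufa4l2, mt-Atp8, mt-Nd4l and a second Atp5o identifier with 0 counts.

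The 13 mitochondrially encoded transcripts were not at one level. mt-Co1 averaged 1147 CPM per kb, mt-Nd1, a core complex I subunit, 595.7 and mt-Cytb 445.5. mt-Nd5, mt-Nd6, mt-Nd2 and mt-Nd4 were at 210.8, 149.0, 110.7 and 108.6. A run of neighbouring genes was far lower: mt-Co2 at 6.71, mt-Atp8 at 0.472, mt-Atp6 at 15.6, mt-Co3 at 11.1, mt-Nd3 at 8.25 and mt-Nd4l at 0.261. In each library these 6 were below the rest: the highest value among them was 23.3, for mt-Atp6, and the lowest among the others was 51.2, for mt-Nd2.

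Near-identical annotated copies in the nuclear genome lay mainly among the low genes. In a search of annotated transcripts at 98% identity or more, mt-Co2, mt-Atp6, mt-Co3, mt-Nd3 and mt-Nd4l matched unprocessed pseudogenes on chromosome 1 over 99.0% to 99.9% of their length. mt-Nd4 was covered over 63.6%, mt-Co1 over 31.3% and mt-Atp8 over 21.1%, and mt-Nd1, mt-Nd2, mt-Nd5, mt-Nd6 and mt-Cytb had no such copy. The sources used here do not give how reads with several matches were counted, and its part in these levels was not tested. Levels of the covered genes are therefore uncertain. Neighbouring genes also share bases (43 between mt-Atp8 and mt-Atp6).

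**Figure D4:**
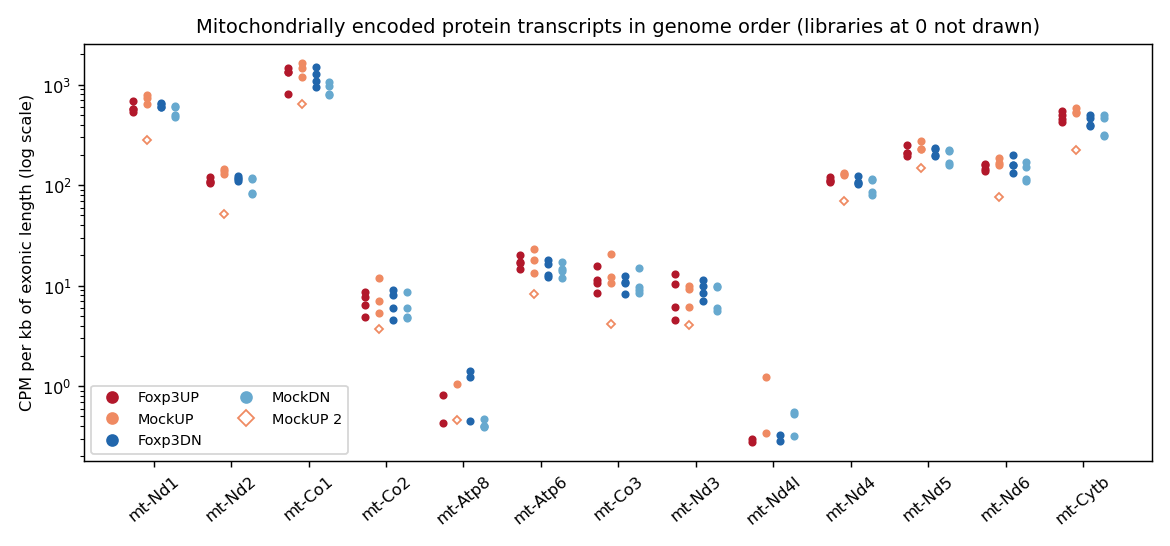
CPM per kb of exonic length (log axis) of the 13 mitochondrially encoded protein genes in genome order, 1 point per library coloured by group, with MockUP 2 as an open diamond; libraries at 0 are not drawn. mt-Co1 lies at 644.0 to 1647 in all 16 libraries, and the stretch from mt-Co2 to mt-Nd4l lies far below its neighbours.

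Outside the members, 90 of 92 listed genes of respiratory chain assembly, mitochondrial DNA and RNA upkeep, nuclear regulation and coenzyme Q synthesis were tested. In Foxp3UP against MockUP, 2 rose and 4 fell, and 84 were not called, a smaller share called than the 12.1% of all genes tested. The risers were Tmem126b, a complex I assembly factor (0.71 ± 0.16, SE; edgeR adjusted p 0.00689), and Surf1, a complex IV assembly factor (0.49 ± 0.15; edgeR adjusted p 0.039). Those that fell were Lrpprc, which stabilises mitochondrial messenger RNAs, Pprc1 and Ppargc1b, coactivators of nuclear respiratory genes, and Lonp1, a matrix protease. For MockUP against MockDN, and for Foxp3DN against MockDN, 0 of 90 were called by edgeR.

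Lrpprc had 47.5, 44.0, 47.8 and 48.3 CPM in Foxp3UP and 63.8, 96.0, 69.3 and 76.7 CPM in MockUP. The groups did not overlap, and MockUP 2 was the highest MockUP library. Its log2 fold change was -0.71 ± 0.12 (SE; edgeR adjusted p 0.00101), and -0.58 without MockUP 2 (0.000765). Pprc1 had 26.4, 43.7, 38.6 and 39.5 CPM in Foxp3UP and 59.1, 136.4, 73.2 and 75.9 in MockUP, with a log2 fold change of -1.22 ± 0.22 (SE; edgeR adjusted p 0.002). Without MockUP 2 it was -0.91 (0.00268). MockUP 2 was thus the highest of the 16 libraries for Lrpprc and Pprc1 while it was the lowest for most subunits.

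Ppargc1b fell by 0.85 ± 0.27 (log2, SE; edgeR adjusted p 0.0441), but not without MockUP 2, where it was -0.49 (0.145). Lonp1 was at -0.36 ± 0.10 (edgeR adjusted p 0.0278) and at -0.29 without MockUP 2 (0.06). The difference between the effects in both arms passed for Tmem126b (0.90 ± 0.22, edgeR adjusted p 0.043; 0.0505 without MockUP 2) and Lrpprc (-0.75 ± 0.16, edgeR adjusted p 0.0261). In bulk libraries, fewer cells of a type and less RNA per cell cannot be told apart.

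**Figure D5:**
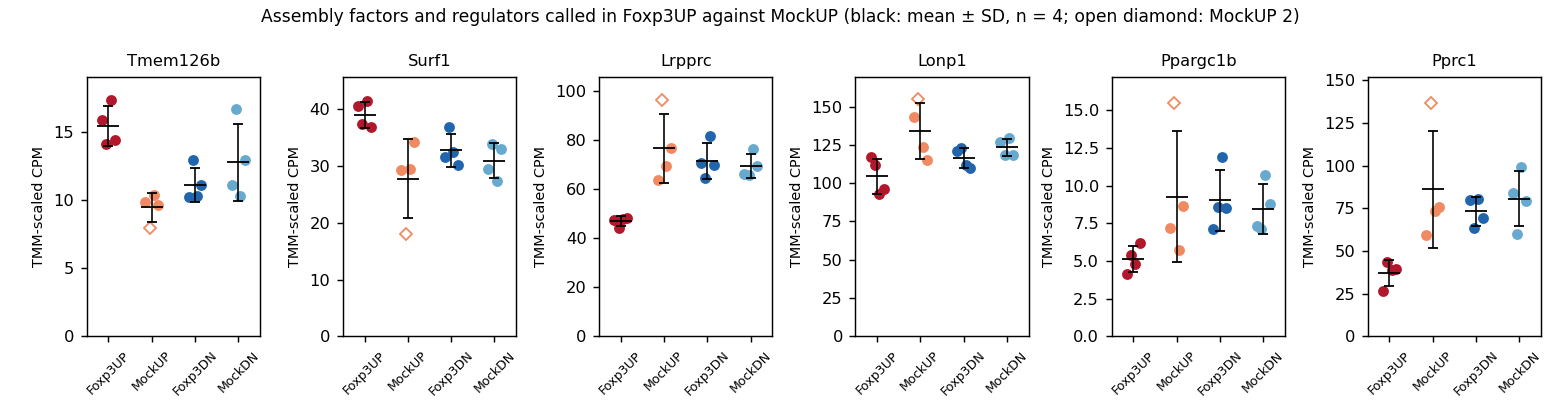
TMM-scaled CPM of the 6 listed assembly factors and regulators called in Foxp3UP against MockUP, per library with axes from 0; black bars are group means ± SD (n = 4) and the open diamond is MockUP 2. Foxp3UP lies above MockUP in Tmem126b and Surf1 and below it in Lrpprc and Pprc1, and MockUP 2 is the highest library in Lrpprc, Lonp1, Ppargc1b and Pprc1.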

How the data were processed

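The authors deposited raw counts per gene for 16 libraries in 1 table. Per the submitters' processing notes, STAR 2.6.1, Subread 1.6.3 and the genome build mm10 were used; the sources used here name no counting option, strand setting or annotation release, so reads shared with antisense or overlapping genes cannot be told apart (Ndufb6 shares 39.0% and Ndufa13 30.0% of exonic bases with an opposite-strand gene). Symbols came from GENCODE M21, in which 55480 of 55573 identifiers were found. From the counts, genes were kept with filterByExpr (minimum count 10; 13711 genes), scaled by TMM and compared by the quasi-likelihood test of edgeR 4.0.16 (R 4.3.3) over all 16 libraries with a term per group, two-sided, with Benjamini-Hochberg adjustment over all genes and a threshold of 0.05. CPM are TMM-scaled; complex levels are means of log2 CPM with a prior count of 2. The main test had no replicate block, so it left out any pairing by replicate number. DESeq2 1.42.0, other scalings and filters, left-out libraries and replicate blocks were alternatives. Copies of mitochondrial genes were searched with BLAST 2.17.0. The edgeR steps were run on simulated counts for Foxp3UP against MockUP and for Foxp3DN against MockDN. The simulation held no outlying library, pairing or replicate sets, so it does not test how these act on the results.

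Same-numbered libraries were checked as pairs. Deviations from group means correlated at 0.213 to 0.63 for Foxp3UP with MockUP and at 0.298 to 0.582 for Foxp3DN with MockDN, above 0.1 in every such pair. Different numbers of the same replicate set could also pass, as Foxp3UP 4 with MockUP 3 (0.364) and Foxp3DN 1 with MockDN 2 (0.235). MockUP 1 correlated more with MockDN 2 (0.594) than with MockDN 1 (0.185). Correlations between replicates 1 and 2 and replicates 3 and 4 were all negative. Within each arm, every Foxp3 library correlated most with the Mock library of its own number, narrowly for Foxp3UP 2 (0.213, against 0.173 with MockUP 1). MockUP 3, however, correlated more with Foxp3UP 4 (0.364) than with Foxp3UP 3 (0.297). The values thus go with pairs by number within an arm as well as with sets of replicates, and the labels do not state pairs. The main test left such pairs out, and the numbers served as pairs only in the replicate blocks. Members and gene lists were chosen with earlier results of these data known. Genes named are the members called in any comparison, those with the smallest p or the largest change per complex, a fixed set of key subunits and the called genes of the pathway lists; others were chosen after their values were seen.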

Additional observations from a re-analysis of the deposited data

Results flagged for a closer look

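In 100 groups of 4 libraries tested, 7 had 1 library far from the others, where chance gives about 5% of groups. MockUP 2 was such a library for Cyc1 (155.3 CPM, next 233.0), Atp5a1 (934.3 CPM, next 1122) and mt-Cytb (259.0 CPM, next 597.9). MockDN 2 stood above its group for Sdhb (249.6 CPM) and for the mean level of complex II (7.62 log2 CPM). Foxp3UP 4 was high for Cox4i1 (309.0 CPM) and Foxp3UP 3 low for Cox6b1 (98.4 CPM). The effect in the UP arm differed from that in the DN arm by an interaction test for Tmem126b (0.90, edgeR adjusted p 0.043) and Lrpprc (-0.75, edgeR adjusted p 0.0261).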

How the results depend on the processing

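The rise of Ndufv3 in Foxp3UP against MockUP kept its direction throughout (0.40 to 0.70, log2) and its call in 27 of 29 settings. The count of members called, 1, became 0 with the libraries compared alone, 3 with the replicate block within each arm, 0 in replicates 1 and 2 alone and 20 in replicates 3 and 4 alone. It was 19 with the block without MockUP 2, a setting added after seeing the data. The count of all genes called, 1654, became 658, 3475, 31, 3025 and 4196 in the same order of settings. In replicates 3 and 4 alone this was 22.2% of genes, beside 22.0% of members. With the block without MockUP 2 it was 30.1% of genes, beside 20.9% of members. By direction, 20.9% of members and 12.0% of genes were lower in replicates 3 and 4 alone, and 19.8% and 15.0% with that block. Only 1 member was higher in each of these settings, against 10.1% and 15.1% of genes. Leaving out each library in turn gave 1 to 6 members and 1064 to 1978 genes; the 6 came without MockUP 2, and 2 (Ndufv3 and Atp5j2) were called without MockUP 4. Of genes, 1064 were called without Foxp3UP 1 and 1097 without Foxp3UP 3. The median of nuclear members, 0.12, was 0.43 in replicates 1 and 2 and -0.17 in replicates 3 and 4. The cause of these moves was not tested. The difference in mean level of complex V between Foxp3UP and MockUP turned from 0.12 to -0.15 by the median of log2 CPM and to -0.12 without MockUP 2.

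For Foxp3DN against MockDN, 1 gene and 0 members were called. The block without MockUP 2 gave 24 genes (0.172% of those tested) and 1 member (mt-Co1, 0.39). Replicates 3 and 4 alone gave 3 genes (0.022%) and 1 member (mt-Nd2, 0.55), and replicates 1 and 2 alone 0 genes. For the difference of effects, 251 genes and 0 members were called. DESeq2 gave 666 genes and 1 member, the replicate block over all groups 811 and 1, and the replicate block within each arm 1739 and 1. That block without MockUP 2 gave 3051 genes (21.9% of those tested) and 18 members (19.8%). Replicates 3 and 4 alone gave 1688 genes (12.4%) and 21 members (23.1%), and replicates 1 and 2 alone 2 genes. By direction, 18.7% of members and 11.0% of genes were lower with the block without MockUP 2, and 23.1% and 7.37% in replicates 3 and 4 alone. The medians in replicates 1 and 2 and in replicates 3 and 4 were 0.48 and -0.30 for nuclear and 0.27 and -0.59 for mitochondrially encoded members. Leaving out each library gave 99 to 518 genes, with 518 without MockUP 1. Uqcrb, a small complex III subunit, turned from 0.05, not called, to -0.52 in replicates 3 and 4.

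For MockUP against MockDN, 1 gene and 0 members were called. DESeq2 gave 10 genes, no filter 2, and replicates 3 and 4 alone 35 genes (0.256% of those tested) and 7 members (7.69%). The medians were -0.48 for nuclear and -0.30 for mitochondrially encoded members in replicates 1 and 2, and 0.71 for the latter in replicates 3 and 4. Leaving out each library gave 1 to 2 genes. The block within each arm could not be fitted to this comparison, and beyond the calls named it changed no other call of a member with all libraries.

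At depths of 9389477 to 13226590 counts per library, 10 members did not pass the filter and were not tested; Cox7b2, Cox8b, Cox8c and the second Atp5o identifier had 0 counts in all libraries.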
